A study of Mus musculus with 12 samples.

Results

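The matricellular proteins and small proteoglycans examined here are the products of 10 genes: the tenascins Tnc and Tnr, the SPARC family genes Sparc and Sparcl1, the thrombospondins Thbs1 and Thbs2, periostin (Postn), osteopontin (Spp1) and the proteoglycans Bgn and Dcn. Members were the probe sets that the platform annotation assigns to exactly 1 symbol, that of a listed gene or its RefSeq synonym. This gave 9 probe sets for 9 of the 10 genes, out of 21780 probe sets with 1 symbol. No probe set carried the symbol of Spp1, which is named here without a value.

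The series compares glioblastoma cells in culture by the cell type in which the tumour began. Tumours had been raised in adult brain by injecting DF-1 chicken cells that make RCAS-PDGFB-HA, an avian retrovirus encoding the growth factor PDGFB. Infection needs the avian receptor tv-a, and the promoter that drives it decides which cells are open to the virus. Cultures named mGC1_GFAP came from tumours of G/tv-a mice (Gfap promoter, astrocytes and stem cells), mGC2_NES from N/tv-a mice (Nes promoter, progenitors) and mGC3_CNP from C/tv-a mice (Cnp promoter, oligodendrocyte lineage), with 3 cultures each. The neural stem cell (NSC) cultures, 1 from each of the 3 lines, came from the subventricular zone of adult mice, a stem cell niche. All 12 cultures, NSC included, were Arf-/- and were grown untreated in a stem cell medium. Growth factor depleted extracellular matrix as a coating is described for the tumour cultures. If the NSC cultures had no such coating, tumour state and coating cannot be told apart in any comparison with NSC. With 1 mouse line for each tumour group, origin and line cannot be told apart. The labels call the tumour cultures biological replicates and name no source animals, so the p-values reflect variation among cultures that may or may not be from separate mice.

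Matricellular proteins are secreted into the extracellular matrix but do not build its fibres. They bind matrix proteins, growth factors and cell surface receptors and tune adhesion, migration and signalling, and many of them are made during development, in wounds and in tumours. Bgn and Dcn belong to the small leucine-rich proteoglycans, whose short core proteins carry chondroitin or dermatan sulphate chains and bind collagen and growth factors of the TGF-beta family. In brain, tenascin-C marks the subventricular niche and tenascin-R the matrix around myelinating glia and neurons.

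Values are log2 RMA summaries of 1 array per culture, whose medians lay between 7.6 and 7.66. Prm2, Tnp1, Tnp2 and Odf1, spermatid genes taken as silent in these cells, read at most 7.42. A group mean at or below 7.42 was therefore treated as background, and a difference with its lower mean there as a lower bound. The array measures RNA of a whole culture, in which fewer cells of a type and less RNA per cell cannot be told apart. Averaged over each list, markers of oligodendrocyte precursors read 12.60 to 12.80 in tumour arrays against 10.08 to 10.32 in NSC arrays, neural stem cell markers 9.26 to 9.80 against 11.33 to 11.51, and astrocyte markers 7.10 to 7.61 against 9.97 to 10.30. Fibroblast and pericyte markers averaged 6.59 to 6.82 in tumour arrays and 6.71 to 6.80 in NSC arrays, microglial markers 6.31 to 6.46 and 6.34 to 6.46, and endothelial markers 6.37 to 6.58 and 6.39 to 6.50. By the limma test described next, 4 of 6 precursor markers were higher in tumour cultures, 4 of 6 stem cell and 6 of 7 astrocyte markers were lower, and of the fibroblast, microglial and endothelial lists 0, 1 and 1 were higher and 1, 1 and 1 lower. The part of these marker differences in the results was not tested. The sex-linked transcripts of 2 arrays stood apart from the rest. In the NSC culture of G/tv-a mice, Xist read 11.86 and the Y-linked Eif2s3y, Kdm5d and Uty 7.94 to 9.16, and mGC2_NES replicate 2 had Xist at 9.27 with Y-linked readings of 4.26 to 5.56. Whether these cultures held cells of more than 1 animal was not tested. Sex-linked readings also differed between the tumour groups: Xist was 12.35 ± 0.38 and Eif2s3y 4.57 ± 0.13 in mGC3_CNP (SD, n = 3 arrays), while Xist read 5.40, 5.58 and 12.60 in mGC1_GFAP and 5.55, 9.27 and 5.62 in mGC2_NES. The part of this difference in the comparisons among tumour groups was not tested.

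Of the 9 measured members, 3 were higher in tumour than in NSC cultures (Postn, Tnr, Dcn), 3 were lower (Tnc, Thbs2, Sparc) and 3 did not pass the test (Sparcl1, Thbs1, Bgn). The test was limma over all 21780 probe sets, with a Benjamini-Hochberg adjusted p under 0.05 as the threshold, and it called 36.7% of all probe sets, 17.6% higher and 19.2% lower. The median difference of the 9 members was -0.34 on the log2 scale, against 0.0072 over all probe sets. The members thus did not move as a group: Tnc differed by -3.39 and Postn by 3.01. Leaving out the 2 arrays with unusual sex-linked readings left 6 of the 9 members called. The share of all probe sets called in that fit is not given here.

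**Figure D1:**
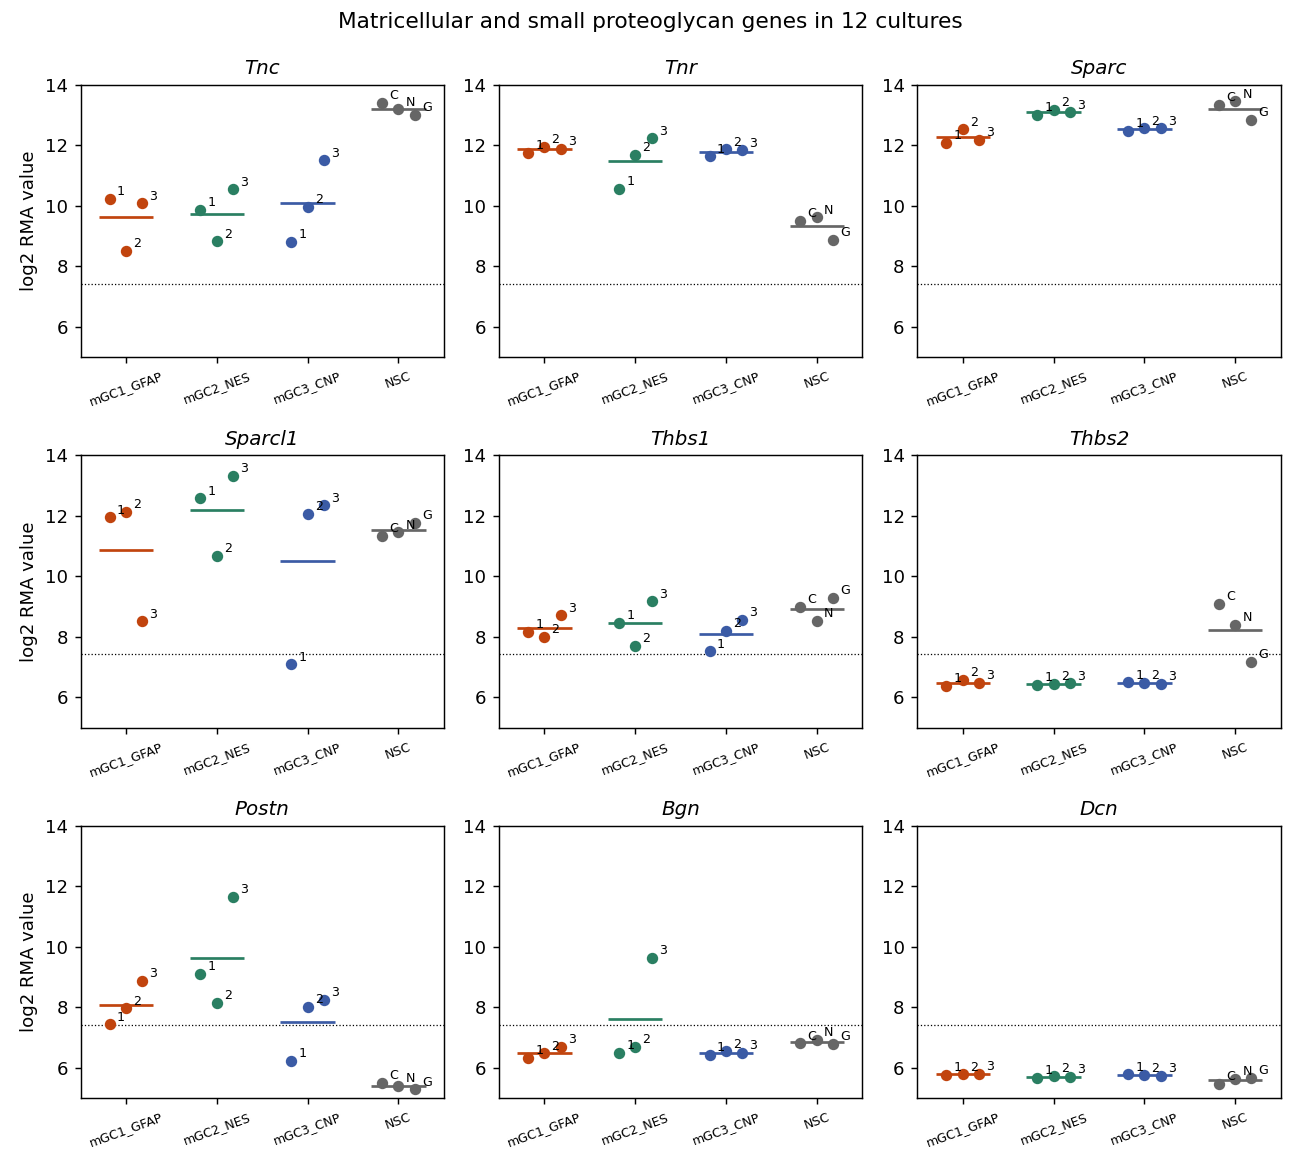
Log2 RMA values (y axis) of the 9 measured members in the tumour groups mGC1_GFAP, mGC2_NES and mGC3_CNP and in NSC cultures (x axis). Points are cultures, numbered by replicate or lettered by mouse line, short lines are group means, and the dotted line at 7.42 is the background bound. NSC points of Tnc and Thbs2 lie above every tumour point, those of Tnr and Postn below every tumour point.

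The promoters of the 4 members with the largest differences between tumour and NSC cultures are shown to let the start regions of genes that moved in opposite directions be compared. They are the 250 bases before the annotated start, taken from RefSeq on GRCm38.p6, for Tnc at chr4:64047016-64047265 (minus strand), Tnr at chr1:159523519-159523768 (plus strand), Thbs2 at chr17:14694263-14694512 (minus strand) and Postn at chr3:54359017-54359266 (plus strand). Each is written 5′ to 3′ along the gene, and capitals mark matches to the motifs searched.
Tnc: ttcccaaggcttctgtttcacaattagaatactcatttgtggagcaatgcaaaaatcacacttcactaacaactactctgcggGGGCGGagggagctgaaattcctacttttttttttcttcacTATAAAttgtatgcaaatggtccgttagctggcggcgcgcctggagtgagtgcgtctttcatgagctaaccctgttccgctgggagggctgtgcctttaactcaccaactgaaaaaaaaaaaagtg
Tnr: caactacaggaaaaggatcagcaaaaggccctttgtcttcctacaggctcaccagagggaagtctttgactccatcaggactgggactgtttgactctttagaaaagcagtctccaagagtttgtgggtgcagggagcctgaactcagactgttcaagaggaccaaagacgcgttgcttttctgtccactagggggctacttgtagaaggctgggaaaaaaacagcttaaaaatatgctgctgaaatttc
Thbs2: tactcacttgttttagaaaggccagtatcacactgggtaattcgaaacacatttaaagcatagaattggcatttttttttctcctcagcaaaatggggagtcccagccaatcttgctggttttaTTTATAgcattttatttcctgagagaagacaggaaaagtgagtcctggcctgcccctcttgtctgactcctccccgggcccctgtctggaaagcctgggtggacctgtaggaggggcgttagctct
Postn: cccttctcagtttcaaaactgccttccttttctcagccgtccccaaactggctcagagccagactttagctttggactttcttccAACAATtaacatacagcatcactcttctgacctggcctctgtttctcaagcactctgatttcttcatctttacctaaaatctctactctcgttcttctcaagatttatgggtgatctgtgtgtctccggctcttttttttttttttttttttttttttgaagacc
The motifs, searched on both strands, were the TATA box TATAAA, the GC box GGGCGG, the AP-1 site TGANTCA and the SOX core AACAAT, which occur in 12.4%, 32.7%, 6.75% and 9.42% of 32851 RefSeq windows of this length. Tnc had the TATA box 126 bases before its start and the GC box 167 bases before it. In Thbs2 the TATA letters lay on the other strand, where they read TTTATA along the gene, 126 bases before the start. Postn had the SOX core 165 bases before its start, and the window of Tnr held none of the 4 motifs. The share of G and C was 44.8% in Tnc, 46.8% in Tnr, 46.8% in Thbs2 and 40.4% in Postn. The matches are letters in these windows and were not tied to any measurement.

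The tenascins moved in opposite directions. Tnc encodes tenascin-C, a large glycoprotein of several arms that loosens cell adhesion, and was lower in tumour cultures. It read 10.24, 8.52 and 10.09 in mGC1_GFAP replicates 1 to 3, 9.87, 8.83 and 10.55 in mGC2_NES, and 8.82, 9.97 and 11.50 in mGC3_CNP, against 13.42, 13.20 and 13.01 in the C/tv-a, N/tv-a and G/tv-a NSC cultures. Even the highest tumour culture, mGC3_CNP replicate 3, lay below the lowest NSC culture. The difference was -3.39 ± 0.53 (limma estimate ± SE, adjusted p = 0.000334), a 10.5-fold lower value. Each tumour group differed from NSC by itself, by -3.59 for mGC1_GFAP (adjusted p = 0.00136), -3.46 for mGC2_NES (0.00138) and -3.11 for mGC3_CNP (0.00319) in the same limma fit. These comparisons share the NSC arrays. Group means were 9.62 ± 0.95, 9.75 ± 0.87 and 10.10 ± 1.35 in mGC1_GFAP, mGC2_NES and mGC3_CNP, and 13.21 ± 0.20 in NSC (SD, n = 3 arrays each). The tumour groups overlapped, and limma's F test over them gave an adjusted p of 0.904.

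Tnr encodes tenascin-R, the tenascin of the nervous system, made chiefly by cells of the oligodendrocyte lineage, and was higher in tumour cultures. The values were 11.76, 11.95 and 11.89 in mGC1_GFAP, 10.56, 11.69 and 12.23 in mGC2_NES and 11.65, 11.87 and 11.84 in mGC3_CNP, against 9.51, 9.62 and 8.87 in C/tv-a, N/tv-a and G/tv-a NSC. All tumour values lay above all NSC values, with mGC2_NES replicate 1 as the lowest tumour culture. The difference was 2.38 ± 0.27 (limma, adjusted p = 3.15e-05), or 5.2-fold. By group it was 2.53 for mGC1_GFAP (adjusted p = 0.000147), 2.16 for mGC2_NES (0.000365) and 2.45 for mGC3_CNP (0.000177). The mGC1_GFAP mean was 11.87 ± 0.10, that of mGC2_NES 11.49 ± 0.85 and that of mGC3_CNP 11.78 ± 0.12, against 9.33 ± 0.40 in NSC. The tumour groups did not pass the test against each other (F test, limma adjusted p = 0.759).

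Of the SPARC family, Sparc was modestly lower in tumour cultures and Sparcl1 varied too much for a call. SPARC is a collagen-binding glycoprotein that counters adhesion. Its values were 12.09, 12.53 and 12.19 in mGC1_GFAP, 13.01, 13.18 and 13.09 in mGC2_NES and 12.48, 12.57 and 12.56 in mGC3_CNP, against 13.34, 13.46 and 12.85 in C/tv-a, N/tv-a and G/tv-a NSC. The mGC1_GFAP and mGC3_CNP values lay below all NSC values, whereas all 3 mGC2_NES values lay within the NSC range. Tumour cultures differed from NSC by -0.59 ± 0.12 (limma, adjusted p = 0.00249), a 1.5-fold lower value. The difference was -0.95 for mGC1_GFAP (adjusted p = 0.000539) and -0.68 for mGC3_CNP (0.00446), and -0.13 for mGC2_NES, which did not pass (0.579).

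Sparcl1 encodes hevin, a SPARC relative that astrocytes secrete and that promotes synapse formation. It read 11.96, 12.13 and 8.51 in mGC1_GFAP, 12.58, 10.68 and 13.32 in mGC2_NES and 7.08, 12.08 and 12.35 in mGC3_CNP, against 11.35, 11.46 and 11.78 in C/tv-a, N/tv-a and G/tv-a NSC. Of the 9 tumour cultures, 6 lay above the NSC range and 3 below it, with mGC3_CNP replicate 1 under the background bound. The tumour difference was -0.34 ± 1.08 (limma, adjusted p = 0.851), and by group -0.66 for mGC1_GFAP, 0.66 for mGC2_NES and -1.03 for mGC3_CNP, with adjusted p of 0.776, 0.758 and 0.642. The sign of the tumour difference turned to 0.05 without mGC1_GFAP replicate 3 and to 0.23 without mGC3_CNP replicate 1. The mGC1_GFAP mean was 10.87 ± 2.04, that of mGC2_NES 12.19 ± 1.36 and that of mGC3_CNP 10.50 ± 2.97, against 11.53 ± 0.22 in NSC. In the order of the means, mGC2_NES, NSC, mGC1_GFAP and mGC3_CNP, no neighbours differed beyond their spread.

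Thrombospondins are multi-domain glycoproteins that restrain blood vessel growth and, when released by astrocytes, promote synapse formation. Thbs1 read 8.17, 8.0 and 8.71 in mGC1_GFAP, 8.46, 7.70 and 9.17 in mGC2_NES and 7.52, 8.19 and 8.55 in mGC3_CNP, against 8.98, 8.52 and 9.29 in C/tv-a, N/tv-a and G/tv-a NSC. The tumour values reached into the NSC range in 3 cultures. The difference of -0.66 ± 0.30 did not pass (limma, adjusted p = 0.114), but it passed without mGC2_NES replicate 3, at -0.78 with an adjusted p of 0.0381. By group the differences were -0.64, -0.49 and -0.84 for mGC1_GFAP, mGC2_NES and mGC3_CNP, and none passed (limma adjusted p = 0.241, 0.354 and 0.111). Means were 8.30 ± 0.37, 8.44 ± 0.74 and 8.09 ± 0.53 in mGC1_GFAP, mGC2_NES and mGC3_CNP and 8.93 ± 0.39 in NSC.

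Thbs2 was at background in every tumour culture and above the 7.42 bound in 2 of the 3 NSC cultures. Its values were 6.39, 6.58 and 6.48 in mGC1_GFAP, 6.41, 6.45 and 6.46 in mGC2_NES and 6.50, 6.47 and 6.45 in mGC3_CNP, against 9.09, 8.41 and 7.17 in C/tv-a, N/tv-a and G/tv-a NSC. The groups did not overlap, and the G/tv-a NSC culture, itself under the 7.42 bound, was the lowest of the NSC cultures. The difference of -1.75 ± 0.28 (limma, adjusted p = 0.000377), or 3.37-fold, is a lower bound. Against the mean of all NSC cultures it was -1.74 for mGC1_GFAP, -1.78 for mGC2_NES and -1.74 for mGC3_CNP (limma adjusted p = 0.00237, 0.00161 and 0.00216). Means were 6.48 ± 0.10, 6.44 ± 0.03 and 6.48 ± 0.02 in mGC1_GFAP, mGC2_NES and mGC3_CNP, with no order among them at background, and 8.22 ± 0.97 in NSC.

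Postn encodes periostin, a ligand of integrins that fibroblasts and wounded or tumour tissue deposit, and was at background in NSC cultures. It read 7.43, 7.96 and 8.87 in mGC1_GFAP, 9.12, 8.15 and 11.66 in mGC2_NES and 6.23, 8.02 and 8.24 in mGC3_CNP, against 5.51, 5.41 and 5.29 in C/tv-a, N/tv-a and G/tv-a NSC. Every tumour value exceeded every NSC value, with mGC2_NES replicate 3 highest by far and mGC3_CNP replicate 1, itself under the bound, lowest. The difference of 3.01 ± 0.63 (limma, adjusted p = 0.00264), or 8.06-fold, is a lower bound. By group it was 2.69 for mGC1_GFAP (adjusted p = 0.0216), 4.24 for mGC2_NES (0.00119) and 2.10 for mGC3_CNP, which did not pass (0.0623). The mGC1_GFAP call was lost without any of 5 arrays, namely each NSC array and mGC1_GFAP replicates 2 and 3, with an adjusted p of at most 0.08, and mGC3_CNP passed without mGC3_CNP replicate 1 (0.0249) or without mGC2_NES replicate 2 (0.0372) or 3 (0.0104). It also passed with a filter on low values (0.0483), with array weights (0.0295) and with only the 2 groups compared (0.017). Means were 9.64 ± 1.81 in mGC2_NES, 8.09 ± 0.73 in mGC1_GFAP and 7.50 ± 1.10 in mGC3_CNP, and 5.40 ± 0.11 in NSC. The 3 tumour groups overlapped.

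The small proteoglycans were near background. Bgn, which encodes biglycan, a collagen-binding proteoglycan that also signals through toll-like receptors, read 6.33, 6.48 and 6.69 in mGC1_GFAP, 6.49, 6.69 and 9.63 in mGC2_NES and 6.43, 6.55 and 6.50 in mGC3_CNP, against 6.81, 6.92 and 6.79 in C/tv-a, N/tv-a and G/tv-a NSC. Of the 12 arrays, 1, mGC2_NES replicate 3, exceeded the bound of 7.42. The tumour difference was 0.03 ± 0.50 (limma, adjusted p = 0.976). Without mGC2_NES replicate 3 it was -0.31 with an adjusted p of 0.0113, a difference between groups that both lie at background. By group it was -0.34 for mGC1_GFAP, 0.76 for mGC2_NES and -0.35 for mGC3_CNP, and none passed (limma adjusted p = 0.75, 0.386 and 0.746). Without mGC2_NES replicate 3 the differences of mGC1_GFAP and mGC3_CNP passed (limma adjusted p = 0.0235 and 0.0198), as they did with only the 2 groups compared (0.0465 and 0.012).

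Dcn, which encodes decorin, a regulator of collagen fibres and growth factor receptors, lay under the bound in all 12 arrays. It read 5.76, 5.79 and 5.79 in mGC1_GFAP, 5.67, 5.73 and 5.71 in mGC2_NES and 5.78, 5.75 and 5.73 in mGC3_CNP, against 5.46, 5.63 and 5.67 in C/tv-a, N/tv-a and G/tv-a NSC. The lowest tumour value and the highest NSC value were both 5.67. The difference of 0.16 ± 0.05 passed (limma, adjusted p = 0.034), at 1.12-fold, and was called in 5 of the 12 fits that left out an array, with an adjusted p of at most 0.205, and not with centred array medians (0.0954). By group it was 0.19 for mGC1_GFAP (adjusted p = 0.0423, called in 2 of the 12 such fits), 0.12 for mGC2_NES (0.201) and 0.17 for mGC3_CNP (0.0763). The mGC1_GFAP call was also lost with centred array medians (0.0749) and with only the 2 groups compared (0.105), and mGC3_CNP passed without the G/tv-a NSC culture (0.0472) and with quantile normalization repeated (0.0437). Since all values lie at background, no level of Dcn can be read from them.

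**Figure D2:**
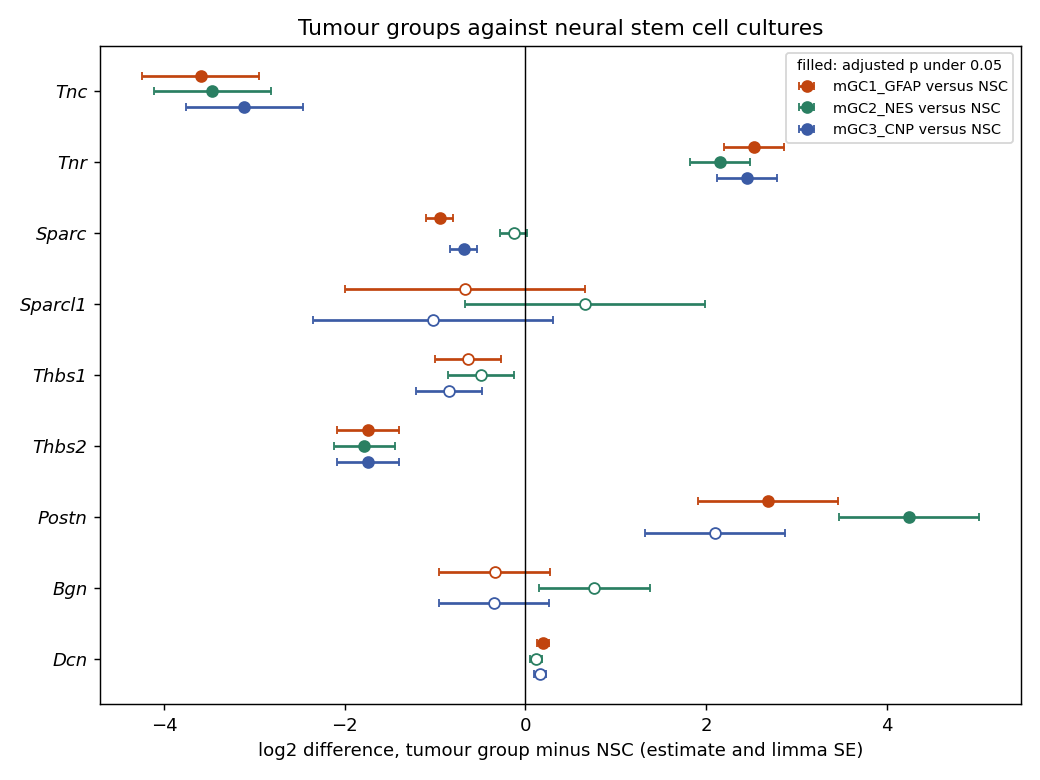
Log2 difference of each tumour group from NSC cultures (x axis, limma estimate with its standard error as bars) for the 9 measured members (y axis); filled points passed an adjusted p of 0.05. Tnc, Thbs2 and Tnr passed in all 3 groups, Sparc in mGC1_GFAP and mGC3_CNP, Postn in mGC1_GFAP and mGC2_NES, and Dcn in mGC1_GFAP.

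By group, 3 of 9 members were higher and 3 lower in mGC1_GFAP than in NSC, where 29.3% of all probe sets were called, 13.9% higher and 15.3% lower. In mGC2_NES 2 were higher and 2 lower (34.9% called, 16.6% and 18.2%), and in mGC3_CNP 1 was higher and 3 lower (30.3% called, 14.9% and 15.5%). The plot of group differences shows the same sides for Tnc, Tnr, Sparc, Thbs1, Thbs2, Postn and Dcn in every tumour group, though not all of these differences passed. Sparcl1 and Bgn changed side between groups. The tumour cultures were also set against the NSC culture of their own mouse line, without a test. These are the same 3 NSC arrays. Tumour and NSC values of Tnc, Tnr, Thbs2, Postn and Dcn did not overlap, so their sides were fixed and add no support. The share of all probe sets with every culture on 1 side was not computed. All 9 tumour cultures lay below the NSC culture of their own line in Tnc, Sparc and Thbs2, and all 9 above it in Tnr, Postn and Dcn. For Thbs1 and Bgn, 8 of 9 lay below and 1 above, and for Sparcl1 6 lay above and 3 below. Many of these sides compare readings at background. All Dcn values lay under the 7.42 bound, as did all Bgn values but that of mGC2_NES replicate 3. For Thbs2, the mGC1_GFAP cultures and the G/tv-a NSC culture all lay under it.

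Among tumour groups, Sparc was the only member called. Its value was 12.27 ± 0.23 in mGC1_GFAP and 13.09 ± 0.09 in mGC2_NES, with 12.54 ± 0.05 in mGC3_CNP (SD, n = 3 arrays each). For mGC1_GFAP against mGC2_NES the difference was -0.82 ± 0.11 (limma on the 9 tumour arrays, adjusted p = 0.00604), and all 3 mGC1_GFAP values lay below all mGC2_NES values. It was 1 of 9 members called, against 6.13% of all probe sets. The difference was -0.27 for mGC1_GFAP against mGC3_CNP (adjusted p = 0.343), where 0 of 9 members passed, against 0.487% of probe sets, and 1 had an unadjusted p under 0.05. For mGC2_NES against mGC3_CNP Sparc differed by 0.56 (adjusted p = 0.0771), and again 0 of 9 passed (0.459% of probe sets), with 2 at an unadjusted p under 0.05. All mGC2_NES values of Sparc lay above all mGC3_CNP values, and its adjusted p was 0.0256 without mGC1_GFAP replicate 2. Limma's F test over the 3 groups gave Sparc an adjusted p of 0.0128, with 4.05% of probe sets called, and that call was lost without mGC2_NES replicate 2 (0.0526) or replicate 3 (0.0502). Postn differed by 2.14 ± 0.86 for mGC2_NES against mGC3_CNP and did not pass (limma, adjusted p = 0.328), and without mGC2_NES replicate 3 the difference was 1.13. The F test of the other 8 members gave adjusted p from 0.327 for Postn to 0.908 for Thbs2.

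Cultures of 1 origin differed widely in several members. The pooled SD within tumour groups was 2.22 for Sparcl1, 1.30 for Postn, 1.08 for Tnc and 1.02 for Bgn, against a median of 0.11 over all probe sets. Sparcl1 was exceeded by 3 probe sets, those of Xist and Eif2s3y, sex-linked transcripts, and 1 of Plp2, a membrane protein gene, all named after their values were seen. The value of Bgn rests on 1 array: without mGC2_NES replicate 3 it was 0.14, near the median. A larger SD than that of Postn was found in 29 probe sets, than that of Tnc in 47 and than that of Bgn in 59. Thbs1 at 0.57 and Tnr at 0.50 were also wide, with 346 and 461 probe sets above them, and without mGC2_NES replicate 1 the SD of Tnr was 0.20. Sparc at 0.14 was near the median, and Thbs2 at 0.06 and Dcn at 0.03, both at background in tumour cultures, were narrow. In NSC cultures the SD was 0.22 for Sparcl1, 0.11 for Postn, 0.20 for Tnc and 0.07 for Bgn, and largest for Thbs2 at 0.97.

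**Figure D3:**
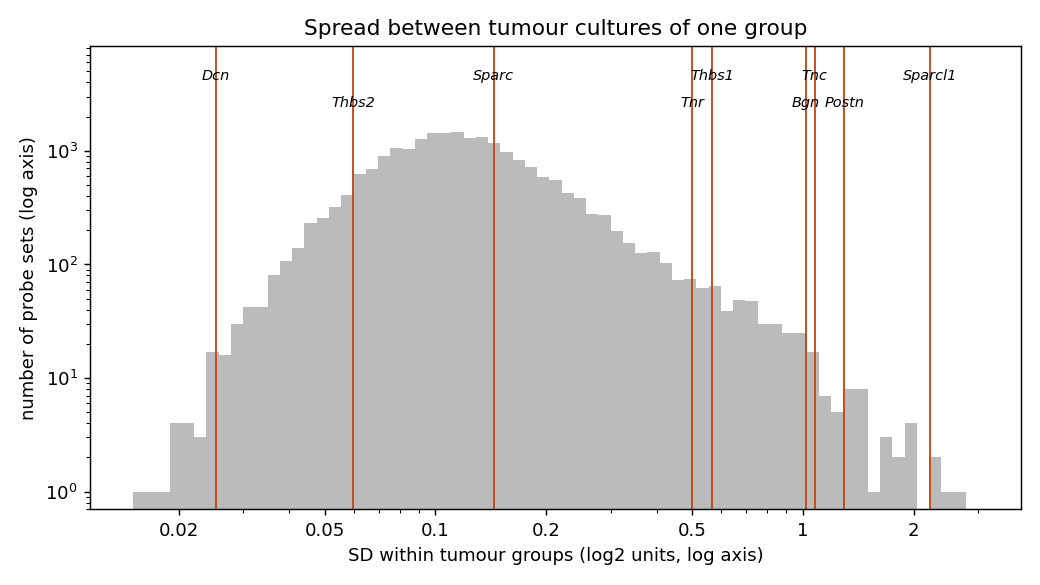
Pooled SD within the tumour groups (x axis, log2 units on a log axis) of 21780 probe sets, as a histogram of their number (y axis, log axis). Vertical lines mark the 9 members: Sparcl1 at 2.22, Postn at 1.30, Tnc at 1.08 and Bgn at 1.02 stand in the right tail, where Bgn is placed by 1 array, mGC2_NES replicate 3.

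Different cultures stood out for different members. In mGC2_NES replicate 3, 18 probe sets lay at least 1 log2 unit above all other tumour arrays and 0 lay as far below, and the 18 held Postn and Bgn. In this culture the fibroblast markers Col1a1, Col1a2 and Col3a1 read 8.43, 8.03 and 7.81, and Col1a1 lay between 8.18 and 8.43 over all arrays. The pericyte marker Pdgfrb read 6.80 there, under the bound. The list holds 10 fibroblast and pericyte markers, of which only these are given for this culture, and the range over arrays is given for Col1a1 alone. In mGC2_NES against NSC, 0 of the 10 were higher, 1 was lower and 9 did not pass (limma), where 16.6% of all probe sets were higher and 18.2% lower. Averaged over the 10, mGC2_NES arrays read 6.76 to 6.82 and mGC1_GFAP arrays 6.62 to 6.67. In mGC3_CNP arrays the mean was 6.59 to 6.71 and in NSC arrays 6.71 to 6.80. The part of such cells in the Postn and Bgn values was not tested. In mGC3_CNP replicate 1, 23 probe sets lay as far above and 12 below, and the 12 held Postn and Sparcl1. Tnr was among 15 probe sets that lay as far below in mGC2_NES replicate 1. The remaining 6 tumour arrays had 1 to 10 such probe sets above and 0 to 30 below, none of them a member.

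Of 22 other matricellular genes, 2 were higher in tumour than in NSC cultures, 6 were lower and 14 did not pass, with a median difference of -0.05 against 0.0072 for all probe sets. The share called was close to the 36.7% of all probe sets. Spock2, a proteoglycan relative of SPARC, was higher by 2.57 ± 0.22 (limma, adjusted p = 3.48e-06), at 9.59 to 10.83 in tumour arrays against 7.38 to 8.0 in NSC arrays. Smoc1, another SPARC relative, differed by 0.38 ± 0.13 (adjusted p = 0.0401), a call lost in 8 of the 12 fits without 1 array, while the difference was 0.61 without the G/tv-a NSC culture. The lower genes included the thrombospondin Thbs3 (-1.07 ± 0.08, a lower bound), Ctgf (Ccn2), a matricellular target of TGF-beta (-0.91 ± 0.21), the SPARC relative Fstl1 (-0.91 ± 0.24) and the integrin ligand Tgfbi (-0.55 ± 0.14, a lower bound). The Ctgf means of mGC1_GFAP and mGC3_CNP were both 7.35, under the bound. That of mGC2_NES was 7.81 and did not pass against NSC (limma, adjusted p = 0.097). Fstl1 did not pass without the G/tv-a NSC culture (-0.70, adjusted p = 0.0717). Tgfbi differed by -0.29 without the N/tv-a NSC culture (adjusted p = 0.0178). Thbs2 and Thbs3 thus both fell, and the tumour means of both lay under the 7.42 bound.

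Among 13 other small leucine-rich proteoglycans, 1 was higher, 3 were lower and 9 did not pass, with a median difference of 0.01, again a share near the 36.7% of all probe sets. Prelp, a proteoglycan of basement membranes and cartilage, differed by -1.08 ± 0.30 (limma, adjusted p = 0.013, a lower bound), at 6.62 to 8.36 in tumour arrays against 7.83 to 8.56 in NSC arrays. It did not pass without the C/tv-a (adjusted p = 0.0748) or N/tv-a NSC culture (0.0523). Lum (0.28 ± 0.08), Ogn (-0.32 ± 0.07) and Ecm2 (-0.56 ± 0.10) lay at background in all groups, so that no level can be read from these calls. Tsku, the remaining gene listed, had no probe set of its own.

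Receptors of these ligands included genes that were higher and genes that were lower in tumour cultures. Of 25 probe sets of 23 receptor genes, 6 were higher in tumour cultures, 12 were lower and 7 did not pass, and the median difference was -0.30, where 17.6% of all probe sets were higher and 19.2% lower. Itga9, an integrin subunit that binds tenascin-C and osteopontin, was higher by 3.05 ± 0.15 and Cntn1, the contactin that binds tenascin-R, by 2.98 ± 0.11 (limma, adjusted p = 2.64e-08 and 3.51e-09). Vldlr, a lipoprotein receptor, was higher by 1.13 ± 0.12, and the thrombospondin receptor Cd47 by 0.99 ± 0.11 and 0.82 ± 0.10 in its 2 probe sets. The largest falls were in Itgb5 (-3.27 ± 0.25), which forms a receptor of periostin and osteopontin, Cd44 (-3.00 ± 0.22), a receptor of hyaluronan and osteopontin, the syndecan Sdc4 (-2.74 ± 0.15) and the fibronectin receptor subunit Itga5 (-2.47 ± 0.09, a lower bound). Itga9 read 9.44 to 11.03 in tumour arrays against 7.35 to 7.49 in NSC arrays, and Cntn1 13.30 to 13.57 against 10.22 to 10.85. Cd44 read 7.06 to 8.17 in tumour arrays against 10.35 to 10.67 in NSC arrays, and tumour and NSC arrays did not overlap for these 3 receptors.

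Of 21 genes for chondroitin and dermatan sulphate chains, such as those on Bgn and Dcn, 10 were higher in tumour cultures, 6 were lower and 5 did not pass, with a median difference of 0.12, where 36.7% of all probe sets were called. The largest rises were those of the sulphotransferases Chst15 (1.94 ± 0.14), Chst11 (1.21 ± 0.07) and Ust (1.11 ± 0.15) and of the chain polymerase Chsy3 (1.55 ± 0.12, a lower bound). The dermatan sulphotransferase Chst14 (-1.12 ± 0.17), the chondroitin sulphotransferase Chst3 (2-fold) and the polymerase Chsy1 (-0.62 ± 0.07) were lower. Csgalnact1, which starts chondroitin chains, differed by -0.54 ± 0.18 (limma, adjusted p = 0.0334), a call lost in 5 of the 12 fits without 1 array: each NSC array (0.0555 to 0.148), mGC2_NES replicate 1 (0.0528) and mGC3_CNP replicate 2 (0.0558).

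**Figure D4:**
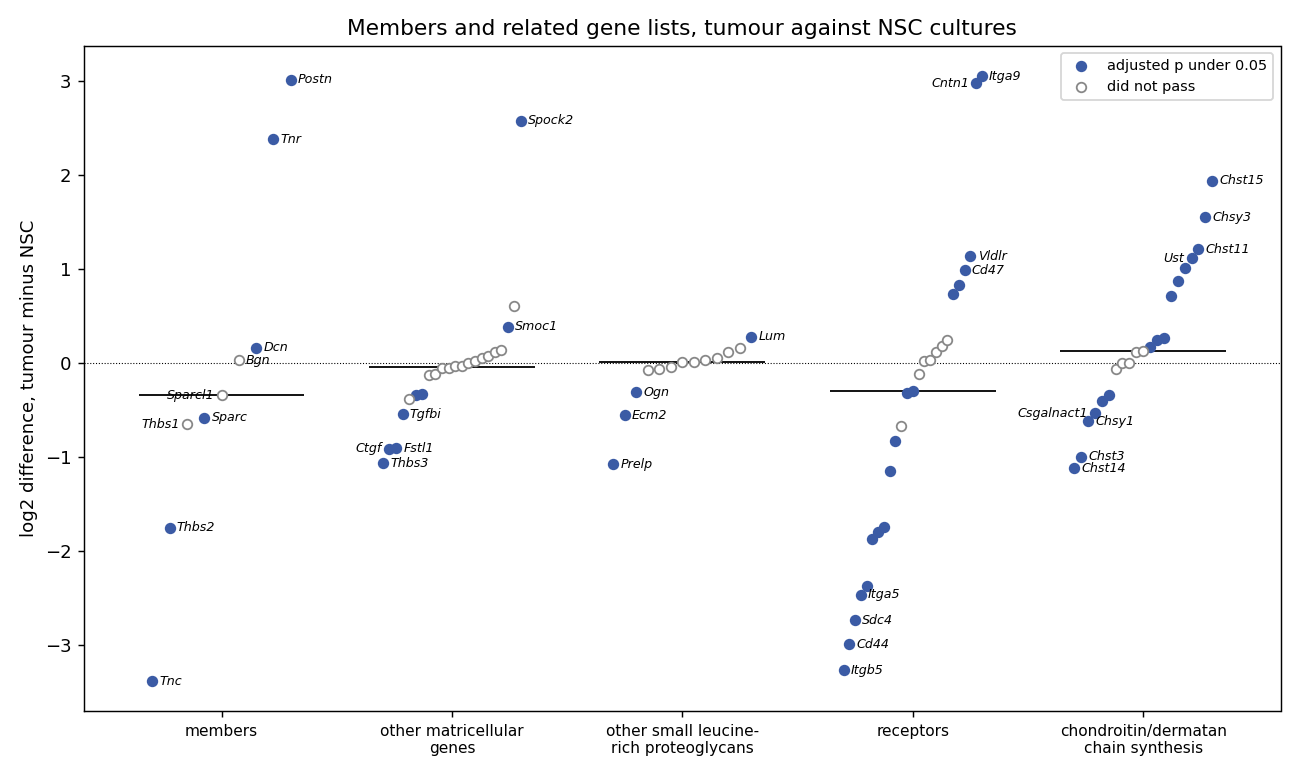
Log2 difference, tumour minus NSC (y axis), of each probe set of the members and of 4 related gene lists (x axis); filled points passed an adjusted p of 0.05 and black lines are list medians. The medians lie between -0.34 for the members and 0.12 for chain synthesis, while single genes reach 3.05 (Itga9) and -3.39 (Tnc).

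Between tumour groups, 0 of the other matricellular genes and 0 of the other small proteoglycans were called in any comparison by limma, with 0 to 4 and 0 at an unadjusted p under 0.05. In mGC1_GFAP against mGC2_NES, where 6.13% of all probe sets were called, 1 of 25 receptor probe sets and 2 of 21 chain synthesis genes were lower. Itga9 differed by -0.82 ± 0.19 (adjusted p = 0.0404), at 9.44, 10.17 and 10.05 in mGC1_GFAP against 10.89, 10.44 and 10.80 in mGC2_NES. Fam20b, a kinase that primes the linker of these chains, differed by -0.76 ± 0.07 (limma, adjusted p = 0.00197), at 11.35, 11.47 and 11.31 in mGC1_GFAP against 12.22, 12.04 and 12.16 in mGC2_NES. Chpf2, a chain polymerising factor, differed by -0.47 ± 0.11 (adjusted p = 0.0354). The values of both groups did not overlap for Itga9 or Fam20b. The Itga9 call was lost in 7 and the Chpf2 call in 6 of the 9 fits without 1 tumour array, with an adjusted p of at most 0.117 and 0.118. The Fam20b call held in all 9. Of 6 stem cell markers, 2 were higher in mGC1_GFAP than in mGC2_NES and 4 did not pass. They were Nes (1.01 ± 0.19, limma adjusted p = 0.0181) and Nr2e1 (0.68 ± 0.12, 0.0139). Of 10 fibroblast and pericyte markers, 1 was lower in mGC1_GFAP. The part of these marker differences in the comparison was not tested.

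The genes most like the 3 members with the widest range of group means were sought by the smallest root mean square difference over the 12 arrays, after each gene's own mean was subtracted. For Postn, whose group means span 4.24, they were Tll1 and Tspan8, at 0.92 and 0.96. For Tnc, with a span of 3.59, they were Anxa2 and Mxra8, at 0.59 and 0.62. For Tnr, with a span of 2.53, they were Shisal1 and Csmd3, at 0.29 and 0.33.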

How the data were processed

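RNA of 12 mouse cultures was measured on 1 array each. The deposited table holds log2 values, which the authors computed by RMA with Affymetrix Expression Console, according to the submitters' processing notes; tool versions, the annotation release and the level of summarisation are not given there. RMA forces a common distribution on all arrays, which hides any change that most genes share. Of 28270 probe sets, 21780 had exactly 1 symbol in the platform annotation of 2016, 1617 had several and 4873 were not listed. Those with 1 symbol were tested in limma 3.58.1 (R 4.3.3) with lmFit and eBayes, by two-sided tests, and p-values were adjusted by Benjamini-Hochberg over all 21780. NSC comparisons used 12 arrays, tumour comparisons the 9 tumour arrays. Probe sets were called at an adjusted p under 0.05, with no filter on low values. The steps were tested on simulated data. Precision depends on how many arrays a group has.

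The members, gene lists and tests were chosen with earlier results of these data known. All members are named. From each list other than the cell type markers the text names up to 4 called genes of largest rise and up to 4 of largest fall between tumour and NSC cultures. It also names any gene of these lists called between tumour groups. Cell type markers are given mainly by counts and mean levels. Groups follow the labels. NSC replicates 1, 2 and 3 are the C/tv-a, N/tv-a and G/tv-a cultures. Replicate numbers of the tumour groups were checked for pairing by the correlation of deviations from the group means. Over 9 same-numbered pairs it was 0.002 to 0.254, with a median of 0.107. Over 18 different-numbered pairs it was -0.194 to 0.134, with a median of -0.066. Not every same-numbered pair exceeded 0.1, so the numbers were not used as a block in the main fit. Whether same-numbered cultures shared a batch was not tested. Promoter sequences are RefSeq's for GRCm38.p6, and 7 of the 10 members had a window. Alternatives covered scaling, low values, probe sets tested, variance prior, array weights, each array left out, the samples in the fit, replicate block, mouse line, background bound and, chosen after seeing the data, leaving out the 2 arrays with unusual sex-linked readings.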

Additional observations from a re-analysis of the deposited data

Results flagged for a closer look

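Of 9 members, 2 had a tumour culture far from the other 8. Among 9 tumour arrays, Tnr was lowest in mGC2_NES replicate 1, at 10.56, where the next value was 11.65, a gap of 0.65 of the whole range against a critical value of 0.493 in Dixon's test. Bgn was highest in mGC2_NES replicate 3, at 9.63, where the next value was 6.69, a gap of 0.891 of the range. Chance alone marks about 1 in 20 sets of 9 values from 1 normal population, whereas these arrays come from 3 groups. The share of all probe sets marked by this rule was not computed. The groups of 3 arrays were too small for this test.

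The difference of Sparc from the mean of the 3 NSC cultures was not the same in mGC1_GFAP as in mGC2_NES cultures. The test between these 2 tumour groups gave -0.82 on the log2 scale (limma, adjusted p = 0.00604). All 3 mGC1_GFAP cultures lay below all 3 mGC2_NES cultures. The NSC cultures of their lines also differed, at 12.85 in G/tv-a and 13.46 in N/tv-a. Against the NSC culture of its own line, mGC1_GFAP differed by -0.58, mGC2_NES by -0.37 and mGC3_CNP by -0.80, without a test. With 1 NSC culture per line, the part of the mouse line was not tested.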

How the results depend on the processing

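Between 4 and 7 members were called for tumour against NSC under the alternatives, and 5 to 7 without single arrays. The count of 4 came with the filter on low values, which gave no value for Thbs2, Bgn and Dcn. That filter left 7173 probe sets called in all, against 8004 in the main test. Of the 1554 values of single genes under alternatives, 1448 kept direction and side of the threshold, 80 lost the call, 16 gained it and 10 changed sign. The calls of Tnc, Tnr, Sparc, Thbs2 and Postn for tumour against NSC held without any single array. For mGC2_NES against mGC3_CNP the number of members called was 1 with only the 2 groups compared, 1 with the replicate block and 0 to 1 without single arrays, and in each case the member was Sparc. In the F test it was 0 to 1 without single arrays and 0 without the 2 arrays in doubt, those with unusual sex-linked readings.

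The filter on low values, readings above 7.63 in at least 3 arrays, left 5 other matricellular genes and 1 other small proteoglycan called, because it removes genes such as Tgfbi, Lum, Ogn and Ecm2, and gave no value for Thbs2, Bgn and Dcn. Without single arrays, 2 to 4 other small proteoglycans were called. The signs that changed belonged to differences that passed no test in the full data. Sparcl1 for tumour against NSC was -0.65 to 0.23 without single arrays and 0.032 without the 2 arrays in doubt. It was -1.30 to 0.51 for mGC1_GFAP and -1.95 to 0.68 for mGC3_CNP. Bgn for tumour against NSC was -0.0039 with centred array medians and -0.31 to 0.21 without single arrays, and for mGC2_NES -0.25 to 1.32. Thbs1 for mGC2_NES was 0.065 without the 2 arrays in doubt. The cause was not tested.

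The replicate block gave Sparc an adjusted p of 0.0498 for mGC2_NES against mGC3_CNP, 0.00704 for mGC1_GFAP against mGC2_NES and 0.0151 in the F test, and it moved the number of probe sets called from 1336 to 1436, 106 to 74, 100 to 121 and 882 to 856 in the 3 pairwise comparisons and the F test. It thus gained the call of Sparc for mGC2_NES against mGC3_CNP and ended those of Itga9 in mGC1_GFAP against mGC2_NES (0.0739) and in the F test (0.0884). With the bound taken from 1035 olfactory receptor probe sets, 6.64, the differences of Thbs2 and Postn were still lower bounds, and those of Thbs3, Tgfbi, Prelp, Itga5 and Chsy3 were not, since their lower means lie above it. The NSC mean of Bgn, 6.84, also lies above it. Depth does not apply to arrays; readings at or below 7.42 limit what can be said of Thbs2, Postn, Bgn and Dcn. Alternatives for the other gene lists were added after seeing the data.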
